A study of Mus musculus with 52 samples.

Results

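Krüppel-like factors are transcription factors that bind CACCC boxes and GC-rich elements of promoters through zinc fingers at their carboxyl end. This account follows 9 of them, Klf2, Klf3, Klf4, Klf5, Klf6, Klf7, Klf10, Klf11 and Klf13, in gastrocnemius muscle of aged mice. The members were chosen by name, with earlier results of these data known. Their counts beside those of all genes are therefore given as a description. Each of the 9 matched 1 Ensembl identifier among the 55487 in the count table. All 9 passed the filter on low counts that left 16668 genes to test.

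The family holds activators and repressors that share DNA sites, so that members can compete for the same promoter. Klf2 and Klf4 are induced by laminar blood flow in endothelium and keep vessels quiescent, and Klf6 is induced quickly after injury or stress in many cell types. Klf10 and Klf11 were found as genes induced by TGF-beta, and Klf3 recruits the co-repressor Ctbp. Klf15, which is not a member here, mediates part of the response of muscle to glucocorticoids.

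Total RNA depleted of ribosomal RNA was sequenced from gastrocnemius of male C57BL/6 mice aged 22 to 24 months. The 52 libraries fell into 13 groups of 4. AMB_W were ambulatory baseline mice on plain drinking water. HU groups were sampled after hindlimb unloading, and RL7 and RL14 groups after unloading and then 7 or 14 d of reloading. Each of these 3 stages had a group given metformin (M), leucine (L) or metformin with leucine (ML) in its drinking water, and a group on water alone (W). No ambulatory group received a drink other than water, so the drinks can be set against water during unloading and reloading only. The labels do not state how long the mice were unloaded or the dose of either compound, and they do not say in words that each library is a separate mouse. The p-values therefore measure the spread between libraries as labelled. Libraries are named by group and title number, so HU_W 2 is number 2 of the unloaded water group.

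Library totals ran from 15605044 counts in HU_L 2 to 32492548 in HU_ML 4. The tissue label matched its markers: 8 muscle fibre genes together took 71674 to 118551 CPM (counts-per-million, on library totals scaled by TMM factors), and of 5 T cell genes none exceeded 1.12 CPM in any library. A set of 12 libraries carried liver transcripts (Alb above 16 CPM, up to 815 in RL14_L 5), among them HU_W 1 and HU_W 2. Some libraries below this cut held less Alb, such as RL7_ML 4 at 9.85 CPM, and are not counted in the set. RL14_ML 1 had 7026 CPM of Gm23935, against 189 in the next library, and RL14_ML 6 had 29.2% of its counts on mitochondrial genes. Called results that rest on these libraries are given below with and without them.

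The members differed in abundance. Per kilobase of gene model, and as a mean over the 52 libraries, Klf6 was the most abundant of the 9 at 10.5 CPM per kb. Klf10, Klf13 and Klf2 followed at 4.79, 4.43 and 4.25 CPM per kb. Klf7, Klf5, Klf3 and Klf4 lay at 3.50, 2.92, 2.59 and 2.47 CPM per kb, and Klf11 was lowest at 1.52. For comparison, Klf9 stood at 45.3 and Klf15 at 8.47 CPM per kb. Klf1, the erythroid factor, had at most 5 counts in a library. Klf17 had none in any of the 52. Lengths are those of all annotated exons together, so levels between genes are approximate. Reads of Klf3, Klf7 and Klf13 are uncertain to a degree, because each overlaps annotated noncoding genes on the opposite strand (Gm20033 for Klf3, Gm13748 and Gm26649 for Klf7, E030018B13Rik and Gm27252 for Klf13) and the strand setting of the counting is not given in the sources used here.

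Of the 9 members, 5 differed somewhere among the 13 groups (edgeR quasi-likelihood F test, Benjamini-Hochberg adjustment over all genes), against a background of 40% of all genes tested. Klf6 had the smallest adjusted p, 9.16e-14. Klf13 followed at 0.000308, Klf3 at 0.00715, Klf2 at 0.0274 and Klf4 at 0.0349. The test was missed by Klf10 (adjusted p = 0.102), Klf7 (0.331), Klf5 (0.412) and Klf11 (0.506). Group means of Klf6 spanned 2.77-fold, from 29.4 CPM in RL7_ML up to 81.3 CPM in HU_W, and those of Klf7 spanned 1.23-fold. In the fit without the 12 liver-transcript libraries, 2 members still passed, Klf6 and Klf13.

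**Figure D1:**
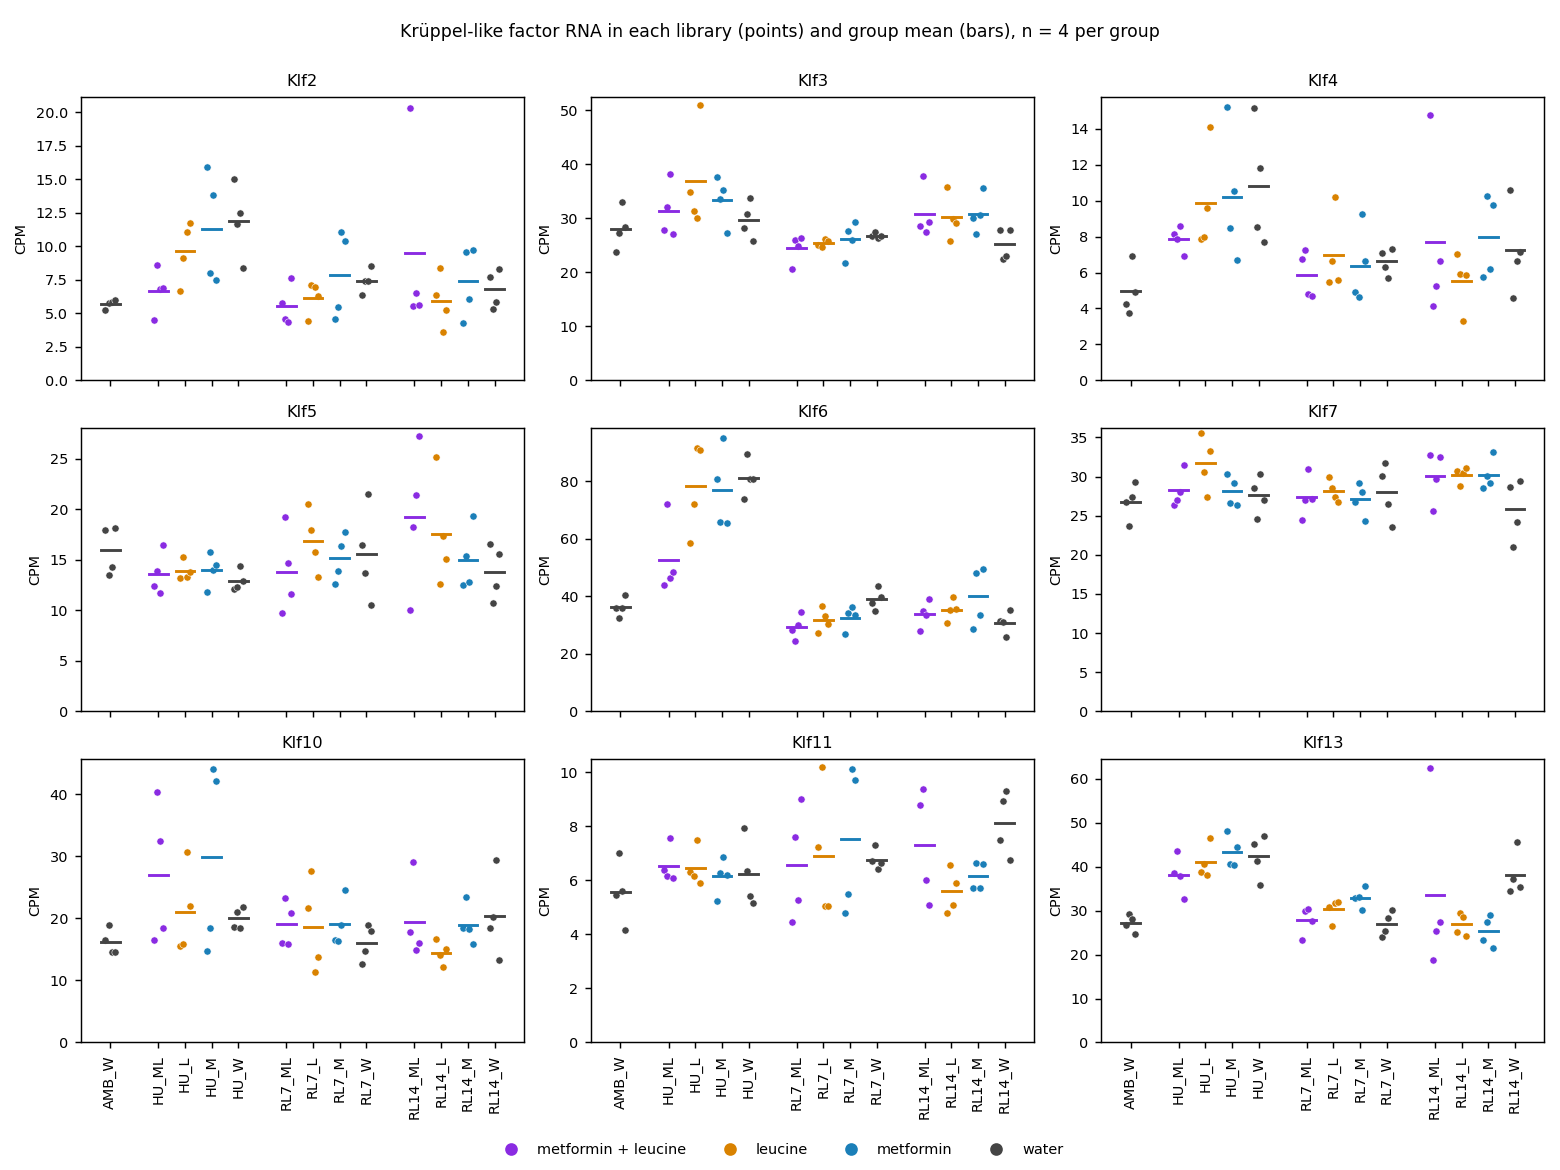
CPM of each of the 9 members in all 52 libraries (points), by group, with group means as bars; each panel has its own linear axis. Klf6 sits at 44.1 to 95.2 CPM in the 16 unloaded libraries and at 24.6 to 49.4 CPM in the 36 others, while Klf7 stays between 20.99 and 35.5 CPM throughout.

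The promoters of the 4 members with the clearest differences in the unloaded muscles are printed here from RefSeq on GRCm38.p6, as the 250 bases before the annotated start, 5′ to 3′. Capitals mark matches to 4 motifs on either strand. The GC box is GGGCGG. The E-box searched for is CACGTG. The CCAAT box is spelled as its name, and the MEF2 element was searched for by its consensus; neighbouring GC boxes can overlap.
Klf2 promoter (chr8:72318812-72319061, plus strand): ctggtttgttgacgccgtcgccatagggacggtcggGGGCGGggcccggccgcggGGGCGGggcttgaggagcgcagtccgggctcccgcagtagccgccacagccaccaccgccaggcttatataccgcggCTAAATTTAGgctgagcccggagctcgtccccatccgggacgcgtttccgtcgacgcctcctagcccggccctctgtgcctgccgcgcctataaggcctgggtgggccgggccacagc
Klf4 promoter (chr4:55532476-55532725, minus strand): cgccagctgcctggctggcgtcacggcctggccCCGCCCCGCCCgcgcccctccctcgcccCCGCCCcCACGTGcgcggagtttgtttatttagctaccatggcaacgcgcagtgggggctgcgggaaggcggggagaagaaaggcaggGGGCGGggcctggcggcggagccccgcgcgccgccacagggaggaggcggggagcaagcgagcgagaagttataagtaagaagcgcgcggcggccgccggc
Klf6 promoter (chr13:5861239-5861488, plus strand): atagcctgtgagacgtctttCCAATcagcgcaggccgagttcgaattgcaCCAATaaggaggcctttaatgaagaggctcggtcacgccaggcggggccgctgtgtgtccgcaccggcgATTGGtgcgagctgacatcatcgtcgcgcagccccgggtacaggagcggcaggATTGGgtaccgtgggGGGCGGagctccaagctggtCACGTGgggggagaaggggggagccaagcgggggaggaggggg
Klf13 promoter (chr7:63938916-63939165, minus strand): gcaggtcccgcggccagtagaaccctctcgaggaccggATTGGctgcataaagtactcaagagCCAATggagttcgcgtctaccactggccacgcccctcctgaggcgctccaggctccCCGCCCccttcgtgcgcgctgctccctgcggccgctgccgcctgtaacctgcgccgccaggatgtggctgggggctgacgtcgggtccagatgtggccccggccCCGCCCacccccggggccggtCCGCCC
The Klf2 window holds a MEF2 element at position -118 from the start, which 2.92% of 32851 promoter windows hold, and it is the only one of the 7 member windows with that element (Klf5 and Klf10 had no entry). The Klf6 window holds 4 CCAAT boxes and an E-box at position -43; 33.8% of all windows hold a CCAAT box and 6.02% an E-box. Klf13 has 2 CCAAT boxes and 3 GC boxes, and Klf4 has 4 GC boxes and an E-box at position -182, the GC box being present in 32.7% of all windows. The CACCC box, the family's own site and not capitalised here, occurs in the Klf2 and Klf13 windows printed, in 4 of the 7 member windows and in 52% of all windows. No member window held a cyclic AMP element (TGACGTCA), an AP-1 site (TGACTCA), a FoxO site (GTAAACA) or a CArG box in full, letters that 1.55%, 4.46%, 3.17% and 1.47% of all windows hold. These are matches of letters, and binding was not measured.

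Unloading on water was the first contrast. Klf6, Klf4 and Klf13 were higher in HU_W than in AMB_W, 3 of 9 members against 1.95% of all genes higher by the same test, and no member was lower. The median log2 fold change of the 9 members was 0.31, and that of all genes was -0.01. Groups did not overlap for 4 members (Klf2, Klf4, Klf6, Klf13), against 13% of all genes.

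Klf6, the stress-induced member, lies on chromosome 13 (5861482 to 5870394, plus strand, GRCm38; ENSMUSG00000000078). It had 74.0, 89.6, 80.9 and 80.8 CPM in HU_W, against 35.9, 32.6, 36.1 and 40.4 CPM in AMB_W. The lowest unloaded library was far above the highest ambulatory one. This was a log2 fold change of 1.17 ± 0.16 (SE), or 2.24-fold, with an adjusted p of 3.50e-06. It passed the test in each of the 8 fits that left out 1 library of these groups, and without the liver-transcript libraries. In these bulk samples more RNA per cell and more cells of a type that express the gene cannot be told apart.

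Klf4, a factor of endothelium, smooth muscle and epithelium that is also used to reprogram cells, lies on chromosome 4 (55527143 to 55532466, minus strand; ENSMUSG00000003032). It had 15.2, 8.52, 11.8 and 7.71 CPM in HU_W, against 4.26, 3.76, 6.89 and 4.90 CPM in AMB_W. The groups did not overlap, and HU_W 1 was the highest library. On the log2 scale the change was 1.13 ± 0.31 (adjusted p = 0.0321). The call was lost without AMB_W 2, AMB_W 3, AMB_W 5, HU_W 1 or HU_W 3 (adjusted p up to 0.159), and without the liver-transcript libraries the adjusted p was 0.294 at a log2 fold change of 0.98.

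Klf13, which activates chemokine and lymphocyte genes and acts in heart development, lies on chromosome 7 (63886351 to 63938915, minus strand; ENSMUSG00000052040). It had 45.3, 41.3, 35.9 and 46.9 CPM in HU_W, against 26.8, 29.1, 28.2 and 24.7 CPM in AMB_W. All unloaded libraries were above all ambulatory ones. On the log2 scale they differed by 0.64 ± 0.18 (adjusted p = 0.0336). The adjusted p was above 0.05 in 7 of the 8 fits that left out 1 library, HU_W 3 being the exception, and reached 0.116. Without the liver-transcript libraries the log2 fold change was 0.61 with an adjusted p of 0.320.

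Klf2, the flow-induced endothelial factor, lies on chromosome 8 (72319033 to 72321656, plus strand; ENSMUSG00000055148). It had 15.05, 11.7, 12.5 and 8.37 CPM in HU_W, against 5.25, 5.76, 5.83 and 6.00 CPM in AMB_W. The groups did not overlap, and the unloaded libraries were more spread out. The log2 fold change of 1.06 ± 0.33 missed the threshold (adjusted p = 0.0706) in the model with 1 spread over all 13 groups. In a fit of these 2 groups alone the adjusted p was 0.000533, and with DESeq2 it was 0.0301. Klf2 did not pass without the liver-transcript libraries, a fit that leaves out HU_W 1 and HU_W 2. In that fit its adjusted p in the test across the 13 groups was 0.103.

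The other 5 members, Klf3, Klf5 (chromosome 14, 99298691 to 99315036), Klf7 (chromosome 1, 64029447 to 64122282), Klf10 (chromosome 15, 38291463 to 38300706) and Klf11 (chromosome 12, 24651274 to 24662789), did not pass. Klf3 averaged 29.7 CPM in HU_W and 28.1 in AMB_W, and Klf7, a factor of neuronal outgrowth, averaged 27.6 and 26.8 CPM in the same order. Klf5, which promotes growth of smooth muscle and gut epithelium, averaged 12.9 ± 1.03 CPM in HU_W and 15.95 ± 2.42 CPM in AMB_W (SD, n = 4 each). The TGF-beta-induced pair averaged 19.996 ± 1.67 CPM in HU_W and 16.2 ± 2.09 CPM in AMB_W for Klf10, and 6.22 ± 1.25 against 5.56 ± 1.17 CPM for Klf11. Of the 9 members only Klf5 had a negative log2 fold change (-0.30 ± 0.22, adjusted p = 0.597).

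Markers of other cells were read in the same contrast. None of the 11 endothelial genes passed, and their summed level was 262 to 331 CPM in HU_W and 262 to 321 CPM in AMB_W. Of 6 red blood cell genes 5 rose, with a sum of 27.6 to 59.9 CPM in HU_W and 2.85 to 6.24 CPM in AMB_W, while Klf1 stayed below the filter. All 9 macrophage genes had positive log2 fold changes, none past the threshold, with a sum of 58.6 to 89.2 CPM in HU_W and 54.1 to 59.7 CPM in AMB_W. Of 7 fibroblast genes 2 fell, with a sum of 453 to 507 CPM in HU_W and 406 to 581 CPM in AMB_W. The part of red blood cells, macrophages and fibroblasts in the Klf differences was not tested.

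Genes of pathways that act with the family were read from lists. The lists were chosen with earlier results of these data known, so their counts are given as a description. All 14 of 14 glucocorticoid and FoxO response genes rose in HU_W against AMB_W, with a median log2 fold change of 1.21. Foxo1 averaged 163 ± 32.3 CPM in HU_W and 37.2 ± 2.84 CPM in AMB_W, and Ddit4, an mTOR inhibitor, averaged 62.6 ± 26.8 and 2.02 ± 0.711 CPM in the same order. Of 19 immediate early genes 9 rose (median 1.17), among them Zfp36, an mRNA decay factor, with 29.5 ± 16.3 CPM in HU_W and 6.11 ± 1.33 CPM in AMB_W, and Fosb with 6.24 ± 5.71 and 0.300 ± 0.239 CPM. None of 7 genes of the ERK5 and MEF2 route, which induces Klf2 and Klf4 in endothelium, passed (median 0.10). Of 5 tested targets of Klf2 and Klf4, S1pr1 rose (36.7 ± 6.50 CPM in HU_W, 20.7 ± 3.52 CPM in AMB_W). None of 6 co-repressors and none of 4 Sp factors, which bind the same GC boxes, passed.

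**Figure D2:**
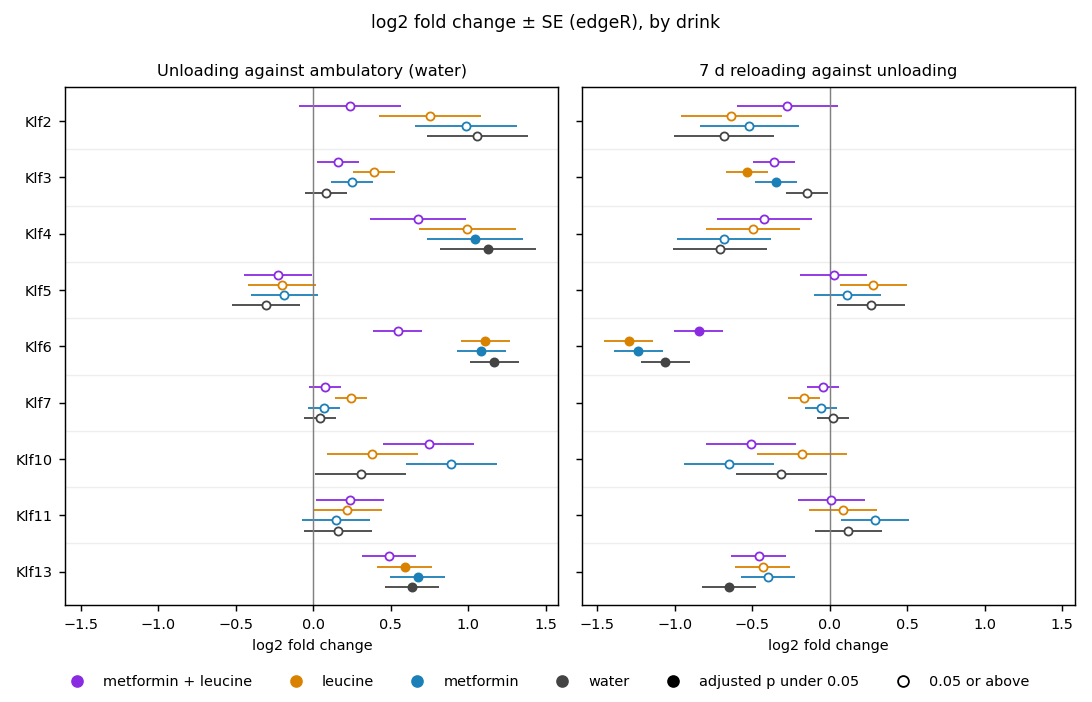
Log2 fold change ± SE of each member in the comparisons of unloading and reloading; filled points have an adjusted p under 0.05. Klf6 is at 1.17 in HU_W against AMB_W and at -1.06 in RL7_W against HU_W, and Klf7 stays near 0.

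The same contrast was read under each drink, with AMB_W as the shared control, so these 4 comparisons are not independent. In HU_M against AMB_W 3 of 9 members were higher (Klf4, Klf6, Klf13; background 2.47%), in HU_L against AMB_W 2 of 9 (Klf6, Klf13; 2.54%), and in HU_ML against AMB_W 0 of 9 by edgeR (2.07%). In the last, 4 members had an unadjusted p under 0.05, as did 2401 of all 16668 genes. DESeq2 called 1 member among 533 genes, and limma voom 2 among 1352. Groups did not overlap for 3, 4 and 3 members in HU_M, HU_L and HU_ML against AMB_W. The shares of all genes without overlap were 14.2%, 13.2% and 11.5% in that order.

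Klf6 had 81.0, 66.0, 95.2 and 65.5 CPM in HU_M and 58.5, 72.2, 91.6 and 91.0 CPM in HU_L. It had 44.1, 72.0, 46.4 and 48.4 CPM in HU_ML. Each of these 12 libraries was above the highest AMB_W library at 40.4 CPM. Log2 fold changes against AMB_W were 1.09 ± 0.16 in HU_M (adjusted p = 9.88e-06), 1.11 ± 0.16 in HU_L (7.02e-06) and 0.54 ± 0.16 in HU_ML (0.0539). With DESeq2 the last had an adjusted p of 0.0342, and with limma voom 0.0267.

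Klf13 averaged 43.4 ± 3.69 CPM in HU_M, 40.98 ± 3.81 in HU_L and 38.2 ± 4.54 in HU_ML (SD, n = 4 each), against 27.2 ± 1.91 CPM in AMB_W. No library of the 3 drinks fell to the ambulatory range. Log2 fold changes were 0.67 ± 0.18 in HU_M (adjusted p = 0.0195), 0.59 ± 0.18 in HU_L (0.0479) and 0.49 ± 0.18 in HU_ML (0.146). The HU_L call was lost in all 8 fits that left out 1 library. The HU_M call was lost without AMB_W 2, AMB_W 5 or HU_M 1.

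Klf4 averaged 10.2 ± 3.66 CPM in HU_M, 9.89 ± 2.91 in HU_L and 7.88 ± 0.693 in HU_ML, against 4.95 ± 1.38 CPM in AMB_W. It passed in HU_M (log2 fold change 1.04 ± 0.31, adjusted p = 0.0455) but not in HU_L (0.99 ± 0.31, 0.0622) or HU_ML (0.67 ± 0.31, 0.295), and these sizes were not tested against each other. The HU_M call was lost without AMB_W 2, AMB_W 3, AMB_W 5, HU_M 1 or HU_M 3. No library of HU_M or AMB_W had Alb above 16 CPM, though AMB_W 3 had 4.71 CPM. In the fit without the liver-transcript libraries, the log2 fold change of Klf4 in HU_M was 1.05 and its adjusted p 0.0511. In HU_L Klf4 passed with DESeq2 (adjusted p = 0.0271), with limma voom (0.0135), in a fit of the 2 groups alone (0.0127) and without RL14_ML 1 and RL14_ML 6 (0.0260). Among the fits that left out 1 library it passed only without AMB_W 4 (edgeR adjusted p = 0.0422), and the adjusted p reached 0.268. It did not pass without the liver-transcript libraries, a fit that leaves out HU_L 5, its highest library at 14.1 CPM.

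Klf10, the TGF-beta-induced repressor, was split within the unloaded groups. It had 14.8, 18.5, 44.1 and 42.1 CPM in HU_M, 15.6, 15.8, 30.8 and 22.0 CPM in HU_L, and 16.6, 40.3, 32.4 and 18.4 CPM in HU_ML. The 4 HU_W libraries lay between 18.5 and 21.8 CPM, and AMB_W between 14.5 and 18.98 CPM. Thus 2 libraries of HU_M and 2 of HU_ML lay above every water library, and the other 2 of each lay at the ambulatory level or close to it. HU_L 3 at 30.8 CPM lay above every water library too, and HU_L 5 at 22.0 CPM just above the highest HU_W library. The remaining HU_L libraries, at 15.6 and 15.8 CPM, lay in the ambulatory range. The log2 fold change of HU_M against AMB_W was 0.89 ± 0.29 (adjusted p = 0.0805). It passed without HU_M 1 or HU_M 2 (lowest adjusted p 0.0230) and with DESeq2 (0.0395).

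Reloading for 7 d was set against unloading on the same drink. On water, Klf6 and Klf13 were lower in RL7_W than in HU_W, 2 of 9 members against 2.9% of all genes. Groups did not overlap for 3 members, against 17.2% of all genes. HU_W serves in this contrast and in the one with AMB_W, so these comparisons share 4 libraries.

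Klf6 had 37.6, 34.9, 43.5 and 39.8 CPM in RL7_W, against 74.0 to 89.6 CPM in HU_W. The groups were far apart, with a log2 fold change of -1.06 ± 0.16 (adjusted p = 1.55e-05). Klf13 had 24.0, 25.5, 28.3 and 30.1 CPM in RL7_W, against 35.9 to 46.9 CPM in HU_W, with a log2 fold change of -0.65 ± 0.18 (adjusted p = 0.0214). The groups did not overlap. The Klf13 call was lost without HU_W 4, RL7_W 1 or RL7_W 2 (adjusted p up to 0.0739), and without the liver-transcript libraries (log2 fold change -0.63, adjusted p = 0.190).

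Klf4 averaged 6.62 ± 0.753 CPM in RL7_W and 10.8 ± 3.41 CPM in HU_W, without overlap, and its log2 fold change of -0.71 ± 0.30 did not pass (adjusted p = 0.175). Klf2 averaged 7.41 ± 0.884 CPM in RL7_W and 11.9 ± 2.76 CPM in HU_W (log2 fold change -0.68 ± 0.32, adjusted p = 0.223). In a fit of the 2 groups alone both passed, at 0.0286 for Klf4 and 0.0135 for Klf2. Without the liver-transcript libraries neither passed. Of 11 endothelial genes 3 rose in the same contrast and none fell, with a summed level of 345 to 436 CPM in RL7_W and 262 to 331 CPM in HU_W. Of 6 red blood cell genes 3 fell, with a sum of 8.27 to 16.6 CPM in RL7_W and 27.6 to 59.9 CPM in HU_W. The part of either in the Klf values was not tested.

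With the drinks, Klf6 was lower after 7 d of reloading in each of the 3 groups. It averaged 32.7 ± 4.05 CPM in RL7_M and 76.9 ± 14.1 CPM in HU_M (log2 fold change -1.24 ± 0.16, adjusted p = 3.50e-07). It averaged 31.9 ± 4.00 CPM in RL7_L and 78.3 ± 15.98 CPM in HU_L (-1.30 ± 0.16, 9.24e-08). It averaged 29.4 ± 4.21 CPM in RL7_ML and 52.7 ± 12.97 CPM in HU_ML (-0.85 ± 0.16, 0.000518). In none of the 3 pairs did libraries overlap, which also held for 29.2%, 29.3% and 17.7% of all genes in that order. Without the liver-transcript libraries the last pair missed the threshold (-0.65, adjusted p = 0.0868). With 5.8S RNA as a covariate the leucine pair missed it (-1.15, adjusted p = 0.122). The 5.8S RNA was at most 1.14 CPM in RL7_L libraries and at least 14.3 CPM in HU_L libraries. The covariate fit therefore cannot tell this RNA from the stage in the leucine pair.

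Klf3, the Ctbp-recruiting repressor (chromosome 5, 64803388 to 64832901, plus strand; ENSMUSG00000029178), was called with 7 d of reloading under leucine and metformin, beside Klf6. It had 25.1, 24.6, 26.2 and 25.8 CPM in RL7_L, against 34.9, 31.3, 30.1 and 50.98 CPM in HU_L. The groups did not overlap, and HU_L 5 stood highest. The log2 fold change was -0.53 ± 0.14 (adjusted p = 0.00344), and without HU_L 5 it was -0.34 with an adjusted p of 0.0680. It averaged 26.2 ± 3.25 CPM in RL7_M and 33.4 ± 4.41 CPM in HU_M (-0.35 ± 0.14, adjusted p = 0.0470), a call lost in 5 of 8 fits without 1 library (HU_M 1, HU_M 2, HU_M 3, RL7_M 1 or RL7_M 3). Without the liver-transcript libraries neither passed (-0.34 and -0.30, adjusted p = 0.230 and 0.179 for leucine and metformin), and with 5.8S RNA as a covariate neither did (-0.34 and -0.20, adjusted p = 0.854 and 0.796).

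In total 2 of 9 members were lower in RL7_M against HU_M (background of lower genes 14.2%), 2 of 9 in RL7_L against HU_L (13.9%) and 1 of 9 in RL7_ML against HU_ML (3.22%). The shares under metformin and leucine lay near the background, so these counts say little about the members. The mitochondrial share also differed, at 5.53% to 9.22% in RL7_M against 13.1% to 17.1% in HU_M, and at 5.88% to 9.42% in RL7_L against 14.4% to 24.1% in HU_L. Markers of other cells moved too. In RL7_M against HU_M all 5 adipocyte genes rose (sum 17.3 to 697 CPM in RL7_M, 8.43 to 27.1 CPM in HU_M). All 6 red blood cell genes fell (5.03 to 31.2 and 16.99 to 179.9 CPM). Of 11 endothelial genes 8 rose and 1 fell (297 to 463 and 272 to 319 CPM). In RL7_L against HU_L 7 of 9 macrophage genes rose (sum 46.6 to 225 CPM in RL7_L, 33.6 to 73.1 CPM in HU_L). So did 3 of 5 adipocyte genes (19.4 to 146 and 1.62 to 27.2 CPM) and 4 of 7 fibroblast genes (398 to 674 and 271 to 421 CPM). Of 11 endothelial genes 4 rose and 1 fell there (328 to 387 and 315 to 400 CPM). In RL7_ML against HU_ML 2 of 11 endothelial genes rose and no adipocyte, macrophage or red blood cell gene passed. The part of these markers and of the mitochondrial share in the Klf values was not tested. Further tests asked whether the change with reloading differed between a drink and water. No member passed in any of the 3 by edgeR, DESeq2 or limma voom. The background of genes called by edgeR was 0.03% for metformin, 0.066% for leucine and 0.012% for both. No member had an unadjusted p under 0.05 by edgeR, while 1634, 1336 and 466 of all 16668 genes did, in that order. For Klf6 the differences of log2 fold changes were -0.17 ± 0.22, -0.23 ± 0.22 and 0.22 ± 0.22.

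After 14 d of reloading on water, Klf6 was the only member called against unloading (1 of 9 lower, background 4.22%). It had 31.4, 31.2, 25.8 and 35.2 CPM in RL14_W, against 74.0 to 89.6 CPM in HU_W, with a log2 fold change of -1.40 ± 0.16 (adjusted p = 5.77e-08). Klf2 averaged 6.79 ± 1.43 CPM in RL14_W and 11.9 ± 2.76 CPM in HU_W, without overlap (-0.81 ± 0.32, adjusted p = 0.0993). Groups did not overlap for 2 members, against 20.8% of all genes. Klf13 had 34.5, 37.3, 45.6 and 35.3 CPM in RL14_W, which overlapped the 35.9 to 46.9 CPM of HU_W (-0.15 ± 0.18, adjusted p = 0.623). All 6 red blood cell genes fell in this contrast, with a sum of 2.69 to 4.60 CPM in RL14_W and 27.6 to 59.9 CPM in HU_W. Of 11 endothelial genes 4 rose, with a sum of 309 to 429 CPM in RL14_W and 262 to 331 CPM in HU_W. The 5.8S RNA averaged 0.718 ± 0.299 CPM in RL14_W and 10.3 ± 2.76 CPM in HU_W, and mitochondrial genes took 8.31% to 11.7% and 12.6% to 17.96% of counts in the same order. Klf6 also passed with 5.8S RNA as a covariate. That fit cannot tell this RNA from the stage, because the groups did not overlap in it. The part of these markers and RNAs in the Klf values was not tested otherwise.

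Against the ambulatory baseline, no member passed by edgeR in RL7_W (background 0%; 1341 genes had an unadjusted p under 0.05, none of them a member) or in RL14_W (0.174%; 2 members with an unadjusted p under 0.05). Over all genes in RL14_W, 2990 of 16668 had such a p, a share near that of the members. DESeq2 called no member in either, and limma voom called 2 in RL14_W, Klf11 and Klf13, among 2991 of the 16668 genes. Klf6 averaged 36.2 ± 3.18 CPM in AMB_W, 81.3 ± 6.39 in HU_W, 38.9 ± 3.63 in RL7_W and 30.9 ± 3.89 in RL14_W. Klf13 averaged 27.2 ± 1.91, 42.4 ± 4.89, 26.97 ± 2.77 and 38.2 ± 5.06 CPM in that order. Its RL14_W libraries were all above the AMB_W libraries, and 17.6% of all genes were without overlap there. The log2 fold change of Klf13 was 0.49 ± 0.18 (adjusted p = 0.151). The adjusted p was 0.00653 in a fit of the 2 groups alone and 0.000232 with limma voom. Klf11 averaged 8.13 ± 1.19 CPM in RL14_W and 5.56 ± 1.17 CPM in AMB_W (0.54 ± 0.22, adjusted p = 0.185).

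The drinks were then compared with water at the same stage. During unloading no member passed in HU_M (background 0%), HU_L (0.006%) or HU_ML (0.048%) against HU_W by edgeR or DESeq2. Unadjusted p-values under 0.05 numbered 0, 1 and 2 among the members in that order, and 647, 499 and 1038 among all 16668 genes. In HU_ML limma voom called 1 member, Klf6, among 59 genes.

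Klf6 in HU_ML came nearest. Its 44.1, 72.0, 46.4 and 48.4 CPM lay below the 74.0, 89.6, 80.9 and 80.8 CPM of HU_W without overlap (background 4.72% of all genes). This gave a log2 fold change of -0.62 ± 0.16, with 0.000231 as the unadjusted and 0.161 as the adjusted p. Without HU_ML 4, the highest of its group and a liver-transcript library, the log2 fold change was -0.82 with an adjusted p of 0.0173. With limma voom and quality weights the adjusted p was 0.0287. Summed red blood cell genes did not overlap, at 6.33 to 15.1 CPM in HU_ML and 27.6 to 59.9 CPM in HU_W. None of these 6 genes passed. Mitochondrial genes took 11.2% to 12.60% of counts in HU_ML and 12.58% to 17.96% in HU_W. The part of either in the Klf6 values was not tested. Klf6 in HU_M and HU_L overlapped HU_W, with log2 fold changes of -0.08 ± 0.16 and -0.06 ± 0.16.

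Klf2 averaged 6.69 ± 1.69 CPM in HU_ML and 11.9 ± 2.76 CPM in HU_W (-0.82 ± 0.32, adjusted p = 0.608), and HU_ML 4 at 8.58 CPM overlapped HU_W 4 at 8.37. Of 19 immediate early genes 3 fell in the same contrast, among them Egr1 with 6.08 ± 1.97 CPM in HU_ML and 28.3 ± 8.54 CPM in HU_W. None of the 14 glucocorticoid and FoxO genes passed there (median log2 fold change -0.36).

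After 7 d of reloading no member passed in RL7_M (background 0.138%), RL7_L (0.078%) or RL7_ML (0.006%) against RL7_W by edgeR, DESeq2 or limma voom. The only unadjusted p under 0.05 was that of Klf6 in RL7_ML, 0.0132. Klf6 in RL7_ML had 28.2, 24.6, 30.2 and 34.7 CPM, against 37.6, 34.9, 43.5 and 39.8 CPM in RL7_W. The groups lay side by side without overlap (background 10.6% of all genes), and the log2 fold change was -0.41 ± 0.16 (adjusted p = 0.461). In a fit of the 2 groups alone, which called 433 of 14575 genes, it had an adjusted p of 0.0412. Mitochondrial genes took 7.56% to 10.4% of counts in RL7_ML and 13.2% to 15.4% in RL7_W. The part of this share in the Klf6 values was not tested. The other members had log2 fold changes between -0.41 and 0.29 in these 3 comparisons.

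**Figure D3:**
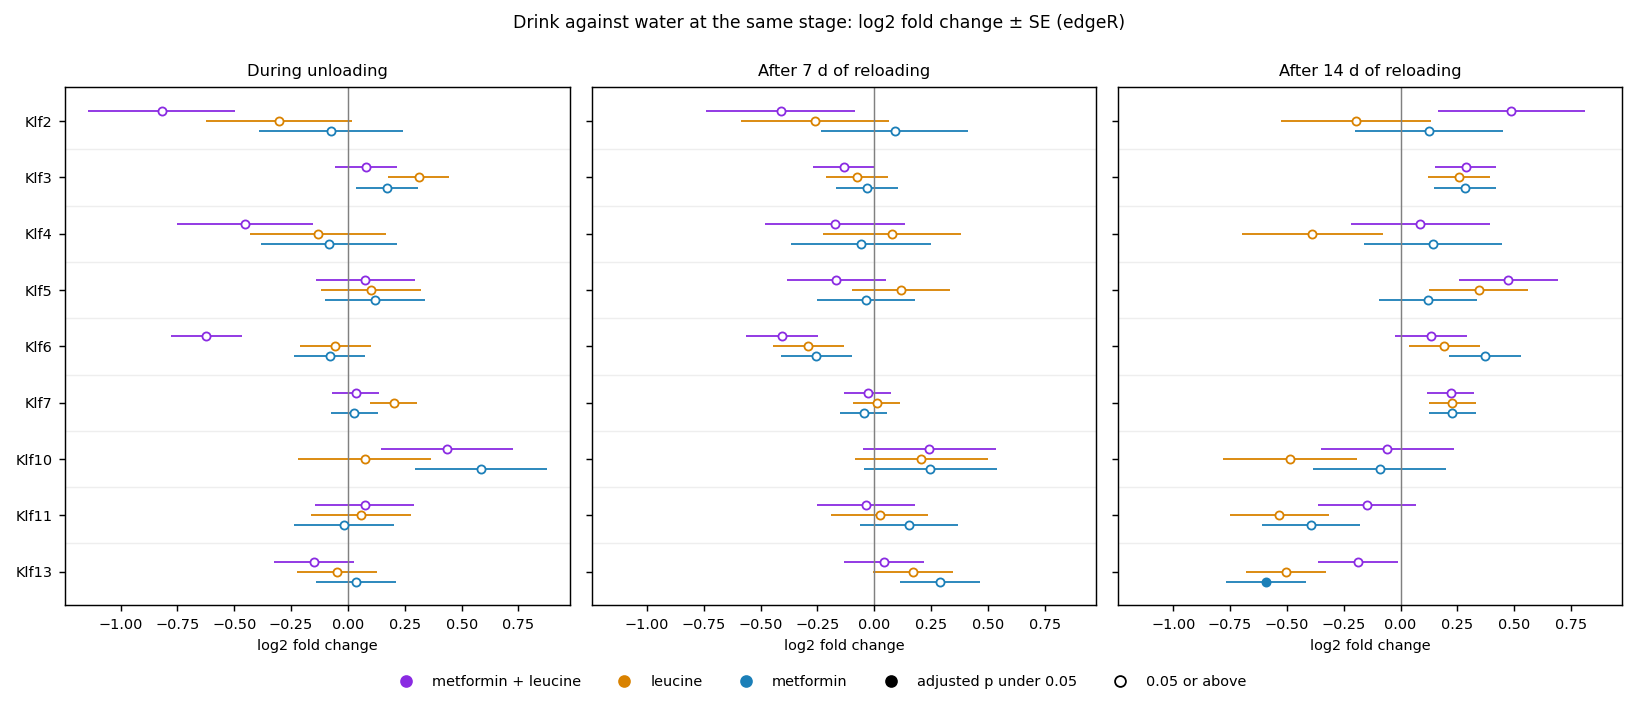
Log2 fold change ± SE of each member for each drink against water at the same stage; filled points have an adjusted p under 0.05. The filled point is Klf13 in RL14_M at -0.59, and Klf6 in HU_ML lies at -0.62 with an adjusted p of 0.161.

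After 14 d of reloading Klf13 was lower in RL14_M than in RL14_W, 1 of 9 members against 3.58% of all genes. In either direction 853 genes were called with all libraries and 41 without RL14_W 3. It had 23.2, 27.4, 29.01 and 21.6 CPM in RL14_M, against 34.5, 37.3, 45.6 and 35.3 CPM in RL14_W. The groups did not overlap (background 17.8% of all genes), and RL14_M lay at or below the AMB_W range of 24.7 to 29.1 CPM. The log2 fold change was -0.59 ± 0.18 (adjusted p = 0.0404). The call was lost without RL14_W 3, RL14_W 4, RL14_M 1, RL14_M 2 or RL14_M 6 (adjusted p up to 0.169), with size factors of another kind (0.0508) and without the liver-transcript libraries (-0.60, 0.0852).

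Klf13 in the other 2 drinks was read beside it. It had 25.2, 29.5, 28.6 and 24.3 CPM in RL14_L, all below RL14_W (-0.50 ± 0.18, adjusted p = 0.151, background 0.294% called and 10.1% without overlap). It passed there with limma voom (adjusted p = 0.00154, 1362 genes called), just so in a fit of the 2 groups alone (0.04998, 234 genes) and without RL14_ML 1 and RL14_ML 6 (0.00490, 1112 genes). It had 62.4, 18.8, 25.5 and 27.4 CPM in RL14_ML, where 3 libraries lay below all of RL14_W and RL14_ML 1 above all of it (-0.19 ± 0.18, adjusted p = 0.744; background 0.714%). Without RL14_ML 1 the log2 fold change was -0.68 and the adjusted p 0.000169. RL14_ML 1 is the library with 7026 CPM of Gm23935.

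The water and drink groups at 14 d also differed in abundant noncoding RNA. The 5.8S ribosomal RNA averaged 18.4 ± 5.00 CPM in RL14_M, 19.1 ± 7.47 in RL14_L and 24.4 ± 8.90 in RL14_ML, against 0.718 ± 0.299 CPM in RL14_W. Mitochondrial genes took 17.5% to 27.4% of counts in RL14_M and 8.31% to 11.7% in RL14_W. All 6 red blood cell genes rose in RL14_M, with a sum of 9.99 to 65.3 CPM there and 2.69 to 4.60 CPM in RL14_W. With 5.8S RNA as a covariate, the log2 fold change of Klf13 in RL14_M was -0.32 with an adjusted p of 1.00. The 5.8S RNA was at most 0.998 CPM in RL14_W libraries and at least 11.6 CPM in RL14_M libraries. That fit therefore cannot tell this RNA from the drink. The part of these RNAs in the Klf13 values was not tested otherwise.

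Klf11 was lower in RL14_M (6.17 ± 0.526 CPM) and RL14_L (5.60 ± 0.802 CPM) than in RL14_W (8.13 ± 1.19 CPM) without overlap, but did not pass (-0.39 ± 0.22 and -0.53 ± 0.22, adjusted p = 0.261 and 0.206). Of all genes 17.8% and 10.1% were without overlap in the same order. Klf5 averaged 19.2 ± 7.14 CPM in RL14_ML and 13.8 ± 2.73 CPM in RL14_W (0.47 ± 0.22, adjusted p = 0.405). Without RL14_ML 1, at 10.1 CPM the lowest of its group, the log2 fold change of Klf5 was 0.69 and the adjusted p 0.0183. Klf7 had log2 fold changes of 0.22 to 0.23 in the 3 drinks, with adjusted p-values of 0.170 to 0.420.

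Klf2 and Klf4 varied together between libraries of the same group. With each group's mean taken out, Pearson's r of their log2 CPM over the 52 libraries was 0.743 and Spearman's rho 0.718. Both had a permutation p of 1e-05, two-sided, from 100000 permutations of libraries within groups, the smallest these can give, and an adjusted p of 0.00036 over the 36 pairs of members. Without RL14_M 1 and RL14_ML 1, the libraries farthest from the median of Klf2, r was 0.676. Over the 40 libraries without liver transcripts it was 0.746, and over the 12 with them 0.749. The pair was named after all 36 were seen. Klf10 and Klf11 were the other pair to pass (r = 0.539, rho = 0.580, adjusted p = 0.00054 and 0.00072 by permutation), and r was 0.535 without HU_M 1 and HU_M 3. Over the 13 group means, Klf2 and Klf4 had a Pearson r of 0.874, given as a description.

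**Figure D4:**
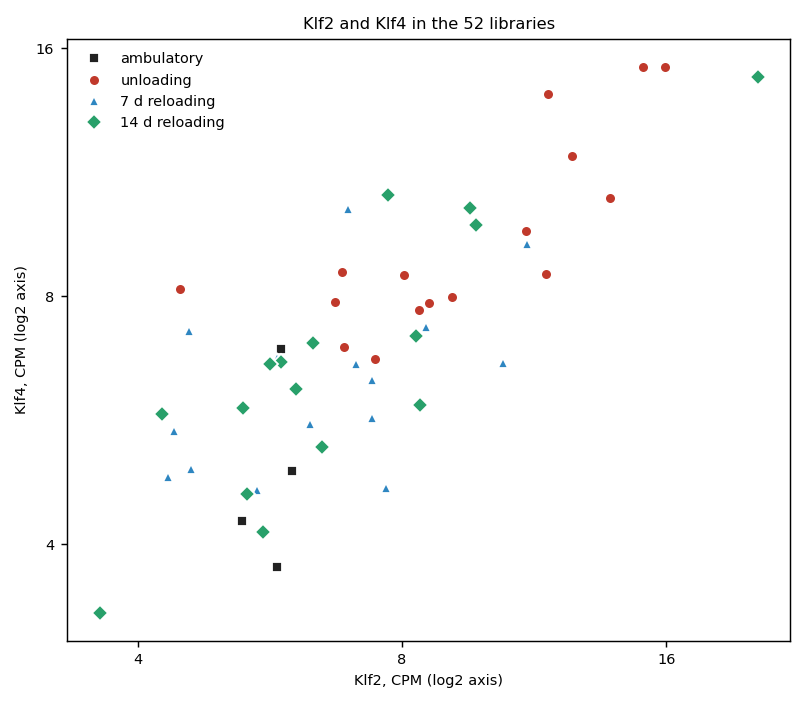
Klf4 against Klf2 in CPM on log axes, 1 point per library, coloured by stage. RL14_ML 1 has the highest Klf2 at 20.3 CPM with Klf4 at 14.8 CPM, and the 4 AMB_W libraries sit at the low end, with Klf2 at 5.25 to 6.00 CPM.

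Genes most like each member were found by Pearson's r of mean log2 CPM over the 13 groups, among 10316 genes, as a description. The libraries are the same for both genes, so shared depth and composition enter each value. For Klf6 they were Trp53inp1 (0.987), Map3k2 (0.982) and Arrdc3 (0.978). For Klf13 they were Foxo3 (0.976), Nup98 (0.961) and Cebpb (0.957). For Klf2 they included Zfp36 (0.944) and Pcdhgb5 (0.910), and for Klf4 they were Cyth3 (0.932), Spsb1 (0.924) and Ctps2 (0.918). For Klf3 they were Spaar (0.957), Adgrf5 (0.951) and Cdk12 (0.946). The nearest genes of the members that missed the test across groups were weaker, at 0.886 for Klf10 (Cry2), 0.887 for Klf11 (Cox19), 0.865 for Klf7 (Kcnn2) and 0.901 for Klf5 (Olfr1564).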

How the data were processed

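The authors deposited 1 table of raw counts, whole numbers with no normalization, with Ensembl genes as rows and the 52 libraries as columns. The submitters' processing notes name STAR 2.7.3a, featureCounts 1.6.3, DESeq2 1.30.0 and the build GRCm38; the strand setting and annotation release are not given in the sources used here. Per the labels' protocols, stranded libraries were made after ribosomal RNA removal. Of 55487 identifiers, 55227 matched GENCODE vM21, which gave symbols and positions. Column totals were the depth, and no column lay outside the samples.

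The 16668 genes that passed filterByExpr (minimum count 10) entered a robust edgeR quasi-likelihood fit (version 4.0.16, R 4.3.3) of all 52 libraries, with TMM factors and 13 group means, leaving 39 residual degrees of freedom. Benjamini-Hochberg adjustment covered all of these genes in each of 24 tests: 20 pairs of groups, 3 interactions and 1 test of any difference. An adjusted p under 0.05 counted as called, and the SE came from the F statistic. "Without overlap" means that every CPM of a group lay above every CPM of the other. Replicate pairs of a group differed by more than counting noise, with at least 7.47 chi-square units per degree of freedom in 78 pairs, so each was counted. The steps were tested on simulated data.

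Alternatives were RLE factors, no count filter, DESeq2 1.42.0, limma 3.58.1 voom with quality weights, a fit of the groups compared, a replicate block and leaving out each library. The fits without liver-transcript libraries, without RL14_ML 1 and RL14_ML 6 and with 5.8S RNA as a covariate were added after seeing the data. Where groups do not overlap in 5.8S RNA, the fit with this covariate cannot tell it from the group. The members, the gene lists and the markers were chosen with earlier results of these data known. The text names all 9 members, the other Klf genes, the 3 genes most like each member (average log2 CPM of at least 1 and no predicted or clone name), and from each list the 2 rising and 2 falling called genes with the smallest p; not all of these are printed, and some list results are not reported here.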

Additional observations from a re-analysis of the deposited data

Results flagged for a closer look

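Each member's 4 libraries in each of the 13 groups, 117 sets of 4 in all, were checked for a library whose gap to its nearest neighbour exceeded Dixon's critical share of the range at 95%. Chance gives about 1 such set in 20, and 2 were found here. Klf2 in RL14_ML 1 had 20.3 CPM, with the nearest library of its group at 6.48 CPM and the lowest at 5.56 CPM (gap over range 0.937). This is the library with 7026 CPM of Gm23935, and its part in the Klf2 value was not tested. Klf6 in HU_ML 4 had 72.0 CPM, with the nearest library of its group at 48.4 CPM and the lowest at 44.1 CPM (gap over range 0.847). HU_ML 4 has the highest total and carries liver transcripts (Alb 16.5 CPM).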

How the results depend on the processing

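No value of a member that was called changed sign under any alternative. Of the 216 member values (9 members in 24 tests), the alternatives, leaving out libraries included, gave 77 values that newly passed the threshold, 81 that no longer did and 4117 that kept their side of it. Klf6 was called in HU_W, HU_M and HU_L against AMB_W and in RL7_W and RL14_W against HU_W under all of them. Where a count of called members moved by over 1.5 times, the cause was not tested unless the setting itself leaves out libraries or adds genes.

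Members called across the 13 groups were 5 as reported, 3 with no count filter, 2 without liver-transcript libraries, 3 with 5.8S RNA as a covariate and 3 with the replicate block. With no filter the counts were 1 in HU_W against AMB_W, 1 in HU_L against AMB_W, 1 in RL7_M against HU_M and 0 in RL14_M against RL14_W; the last was 0 with RLE factors too. Without liver-transcript libraries they were 1 in HU_W against AMB_W, HU_L against AMB_W, RL7_W against HU_W and RL7_L against HU_L, and 0 in RL7_ML against HU_ML and RL14_M against RL14_W. With the 5.8S covariate they were 1 in RL7_M against HU_M and 0 in RL7_L against HU_L and RL14_M against RL14_W. Without RL14_ML 1 and RL14_ML 6 they were 4 in RL7_M against HU_M, 2 in HU_ML against AMB_W, RL7_ML against HU_ML and RL14_W against HU_W, and 1 in RL14_L and RL14_ML against RL14_W and in RL14_W against AMB_W. In a fit of the groups compared they were 4 in HU_L against AMB_W, RL7_L against HU_L and RL7_W against HU_W, 2 in HU_ML against AMB_W, RL7_ML against HU_ML, RL14_W against AMB_W and RL14_W against HU_W, and 1 in RL14_L against RL14_W and RL7_ML against RL7_W. With limma voom they were 5 in RL7_M against HU_M, 4 in RL7_L against HU_L, RL14_W against HU_W and RL14_M against RL14_W, 3 in RL14_ML against RL14_W, 2 in HU_ML against AMB_W, RL7_ML against HU_ML, RL14_L against RL14_W and RL14_W against AMB_W, and 1 in HU_ML against HU_W. With DESeq2 they were 5 in HU_M against AMB_W and 1 in HU_ML against AMB_W.

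Leaving out 1 library at a time gave 3 to 6 members across the 13 groups, 1 to 2 in HU_W against AMB_W, 1 to 4 in HU_M against AMB_W, 1 to 2 in HU_L against AMB_W, 1 to 2 in RL7_W against HU_W, 1 to 3 in RL7_M against HU_M and 1 to 2 in RL7_L against HU_L. It gave 0 to 1 in HU_ML against HU_W (1 without HU_ML 4), 0 to 1 in RL14_M against RL14_W and 0 to 2 in RL14_ML against RL14_W (2 without RL14_ML 1). The other counts did not move.

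The replicate numbers pair no samples: 62 pairs of same-numbered libraries had correlations of -0.289 to 0.39, no comparison had every pair over 0.1, and in 0 of 17 comparisons did every library correlate best with its own number. With the replicate block 3 members were called across the 13 groups, 1 (Klf6) in HU_ML against AMB_W and 0 in RL14_M against RL14_W. Klf4 missed the threshold with the block in HU_W against AMB_W (adjusted p = 0.0615) and in HU_M against AMB_W (0.0773).

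Backgrounds moved as well. Over the settings other than leaving out 1 library, 123 to 1389 genes were called in HU_W against AMB_W (464 as reported), 248 to 2778 in RL7_W against HU_W (813), 30 to 4519 in RL14_W against HU_W (1620), 0 to 2991 in RL14_W against AMB_W (29), 0 to 260 in RL7_W against AMB_W (0), 68 to 1352 in HU_ML against AMB_W (345), 397 to 1309 in HU_M against AMB_W (603), 418 to 1604 in HU_L against AMB_W (624), 49 to 5894 in RL7_M against HU_M (4930), 25 to 5901 in RL7_L against HU_L (4771), 133 to 2799 in RL7_ML against HU_ML (985), 0 to 3952 in RL14_M against RL14_W (853), 4 to 1362 in RL14_L against RL14_W (49), 1 to 637 in RL7_ML against RL7_W (1) and 0 to 3047 in RL14_ML against RL14_W (119). Leaving out 1 library gave as few as 41 in RL14_M against RL14_W (without RL14_W 3), 577 in RL14_W against HU_W (without HU_W 2), 408 in RL7_W against HU_W (without RL7_W 2), 255 in HU_W against AMB_W (without AMB_W 5), 279 in HU_M against AMB_W (without HU_M 3), 67 in HU_ML against AMB_W and 359 in RL7_ML against HU_ML (both without HU_ML 4) and 2772 in RL7_L against HU_L (without HU_L 5), and as many as 2500 in RL14_ML against RL14_W (without RL14_ML 1). The count in HU_L against AMB_W also moved by over 1.5 times without AMB_W 5. Klf4 and Klf2 rest on 51 to 410 counts a library, which limits what can be told of them.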

Other observations

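Of the 8 other Klf genes, 5 passed the count filter: Klf8, Klf9, Klf12, Klf15 and Klf16. Klf15, which glucocorticoids induce in muscle, was higher in all 4 unloaded groups than in AMB_W. It averaged 28.1 ± 5.14 CPM in HU_M, 31.4 ± 5.27 in HU_L, 29.7 ± 6.63 in HU_ML and 30.2 ± 4.97 in HU_W, against 17.6 ± 3.17 CPM in AMB_W (SD, n = 4 each). The log2 fold changes were 0.68, 0.83, 0.76 and 0.78, with adjusted p-values of 0.0428, 0.00822, 0.0308 and 0.0188 (edgeR). With reloading it passed in RL7_L (19.6 ± 3.21 CPM, against 31.4 ± 5.27 CPM in HU_L, log2 fold change -0.68, adjusted p = 0.00960). On water Klf15 averaged 21.4 ± 2.05 CPM in RL7_W and 27.6 ± 4.09 CPM in RL14_W, and passed in neither against HU_W. The log2 fold changes there were -0.50 and -0.13 (edgeR adjusted p = 0.139 and 0.712). Whether the change differed between leucine and water was not tested for Klf15 here.

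Klf9, a stress- and hormone-responsive repressor and the most abundant Klf gene of these muscles, was lower after 7 d of reloading under every drink and on water. It averaged 153 ± 46.4 CPM in RL7_M and 272 ± 15.8 CPM in HU_M, 167 ± 8.54 CPM in RL7_L and 314 ± 35.8 CPM in HU_L, and 172 ± 8.42 CPM in RL7_ML and 252 ± 32.9 CPM in HU_ML. On water it averaged 189 ± 21.6 CPM in RL7_W and 282 ± 9.40 CPM in HU_W. The log2 fold changes were -0.83, -0.91, -0.55 and -0.58, with edgeR adjusted p-values of 6.67e-05, 1.31e-05, 0.0142 and 0.0104. In RL14_W Klf9 averaged 208 ± 16.4 CPM and was lower than in HU_W (-0.44, edgeR adjusted p = 0.0439). Against AMB_W (203 ± 7.87 CPM) Klf9 passed in HU_L (0.63, adjusted p = 0.00504), while in HU_W it did not (0.47, adjusted p = 0.0584). Klf16 was near 1 CPM and was called in RL14_W against HU_W (1.45 ± 0.242 and 0.632 ± 0.241 CPM, adjusted p = 0.0295). Klf12 averaged 26.4 ± 4.17 CPM in HU_W and 28.04 ± 2.05 CPM in AMB_W and did not pass there.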
